A study of Mus musculus with 2 samples.

Results

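Gata1 peaks were examined at 8 genes. They were the Krüppel-like factor genes Klf1, Klf2, Klf3, Klf6 and Klf13, and the genes of the globin repressors Bcl11a, Zbtb7a and Sox6. A peak was assigned to a gene when its midpoint lay in the gene body or within 50 kb of either end, and 9 of the 4135 peaks in the list met this rule. The peaks came from chromatin immunoprecipitation sequencing (ChIP-seq) with a rabbit antibody to Gata1, the zinc finger factor that directs red cell development. The cells were mouse embryonic stem cell derivatives, grown for 5 days as embryoid bodies under conditions that favour blood, and sorted as positive for both a Runx1-ires-GFP and a Gata1::mCherry reporter, and the series calls them primitive erythroid. The series holds 1 Gata1 ChIP library, made from cells pooled over several sorts, and 1 input chromatin library of the same cells and day, whose values were not analysed here. The antibody label of the input names a rabbit IgG, while its description says that material was too scarce for an IgG ChIP. Both libraries came from cells carrying both reporters. With 1 ChIP library there is no replicate error, and no difference below was tested. The list gives positions only, so a site is called or not called and read depth is unknown. The calling threshold is not stated, and weaker binding could be missing from the list. It holds no expression values, so the identity of the sorted cells could not be checked against marker genes.

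Mouse red cells switch the globin chains they make as development proceeds. The primitive cells of the yolk sac make embryonic globins, and the definitive cells that follow make adult globins. Klf1 binds CACCC-type letters, activates adult beta-globin and many other red cell genes, and cooperates with Gata1. Klf2 contributes to embryonic globin expression in mouse primitive cells, Klf3 is a repressor that competes with Klf1 for its sites, Klf6 is needed for yolk sac blood formation, and Klf13 can activate human fetal globin in reporter assays. Bcl11a and Zbtb7a (also called LRF) silence embryonic and fetal globins, and Sox6 represses the mouse embryonic gene Hbb-y in definitive cells.

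Gata1 peaks lay within 50 kb of 6 of these 8 genes (75%, 95% Wilson interval 40.9 to 92.9%, counting error over genes only). Zbtb7a had 3 peaks, Sox6 had 2, and Klf1, Klf2, Klf6 and Klf13 had 1 each. Klf3 and Bcl11a had none. Klf13, Zbtb7a and Sox6 held a peak in the gene body. Relative to start sites the nearest peaks were at Zbtb7a, where one lay over the start, and at Klf1, where one lay just before the start. Another Zbtb7a peak lay just past the gene's end. Among all 21792 protein-coding genes, 32.0% had a peak within the same distance. Counts within 10 kb were 4 of 8 genes, against 16.6% of all protein-coding genes, and a peak in the gene body itself was found for 3 of 8, against 9.34%. With 100 kb, 7 of 8 had a peak, against 43.9%. The 8 genes were chosen with earlier results of these data known, so these counts are descriptions.

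**Figure D1:**
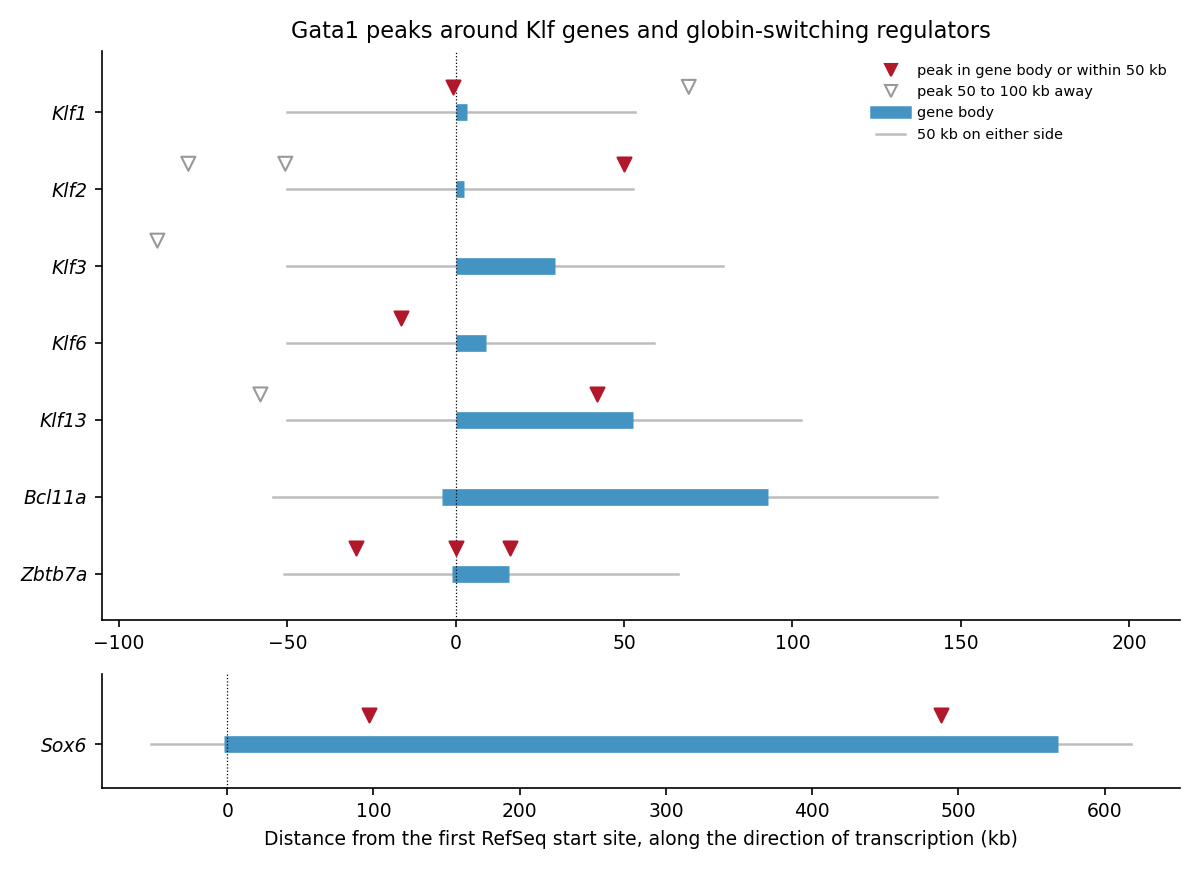
Position of Gata1 peaks (triangles) along the 8 genes, in kb from the first RefSeq start site in the direction of transcription; bars are gene bodies, thin lines the 50 kb on either side, and Sox6 has its own scale. Filled triangles mark the 9 assigned peaks and open triangles the 5 peaks between 50 and 100 kb away, and Bcl11a has neither.

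The RefSeq sequences (GRCm38.p6, the assembly also called mm10) before the start sites of 4 of these genes are shown because they set the genes with a peak within 1 kb of the start, Klf1 and Zbtb7a, beside those with no peak in the window, Klf3 and Bcl11a. All 8 genes had an entry in the promoter table. Each stretch is the 250 bases before the start, 5′ to 3′ on the gene's strand. The listed starts of Zbtb7a and Bcl11a lie inside the annotated gene spans, which begin at 81135225 and 24076564. Capitals mark the GATA-type letters, which Gata1 can bind, and CCNCNCCC, a Klf-type sequence, on either strand, and neighbouring or overlapping matches run together. The GATA-type letters searched were AGATAA, its variant TGATAA, the form AGATAG and the form TGATAG.
Klf1 (chr8:84901732-84901981, + strand): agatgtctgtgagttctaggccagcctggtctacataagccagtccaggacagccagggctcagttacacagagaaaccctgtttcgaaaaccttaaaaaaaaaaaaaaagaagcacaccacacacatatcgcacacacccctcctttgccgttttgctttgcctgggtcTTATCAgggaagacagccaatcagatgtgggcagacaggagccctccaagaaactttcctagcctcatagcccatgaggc
Zbtb7a (chr10:81136021-81136270, + strand): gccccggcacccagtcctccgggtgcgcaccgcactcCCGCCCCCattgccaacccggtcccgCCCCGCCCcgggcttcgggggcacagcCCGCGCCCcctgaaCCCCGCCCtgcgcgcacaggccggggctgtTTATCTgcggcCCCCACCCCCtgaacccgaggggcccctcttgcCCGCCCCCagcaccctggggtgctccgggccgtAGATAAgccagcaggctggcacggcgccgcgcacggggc
Klf3 (chr5:64803271-64803520, + strand): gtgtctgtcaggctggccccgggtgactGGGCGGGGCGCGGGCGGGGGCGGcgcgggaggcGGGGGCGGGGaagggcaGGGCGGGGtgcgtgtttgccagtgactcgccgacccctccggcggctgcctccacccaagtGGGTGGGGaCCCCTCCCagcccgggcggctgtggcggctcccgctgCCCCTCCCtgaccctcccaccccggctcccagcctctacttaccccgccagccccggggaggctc
Bcl11a (chr11:24080445-24080694, + strand): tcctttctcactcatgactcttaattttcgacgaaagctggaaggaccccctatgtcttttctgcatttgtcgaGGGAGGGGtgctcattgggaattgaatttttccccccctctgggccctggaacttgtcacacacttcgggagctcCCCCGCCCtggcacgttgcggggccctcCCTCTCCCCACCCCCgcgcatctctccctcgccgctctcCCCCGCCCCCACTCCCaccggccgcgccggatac
The Klf1 stretch held 1 GATA-type match and no CCNCNCCC, with 49.2% G or C. The shorter letters CACCC do occur in it, within cacacccc, which CCNCNCCC cannot match. CACCC was not searched, so these counts do not cover all CACCC-type letters. The Zbtb7a stretch held 2 GATA-type matches and 7 CCNCNCCC matches, with 78% G or C. The Klf3 and Bcl11a stretches held no GATA-type match, and 10 and 8 CCNCNCCC matches, with 78.4% and 62% G or C. Klf2, Klf6 and Klf13, each with an assigned peak farther from the start, likewise held no GATA-type match in these 250 bases, and Sox6 held 1 over its 6 entries. Of all 32851 RefSeq promoter entries, 26.5% held a GATA-type match and 45.9% a CCNCNCCC match in the same 250 bases.

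Klf1, the erythroid Krüppel-like factor gene, had 1 peak, at 84901079 to 84901478 on chromosome 8. Its midpoint lay 0.704 kb upstream of the gene and of its only listed start site, and no annotated gene held it. Klf1 itself is short, 3.31 kb at 84901982 to 84905291. Counting the start base as 0, the peak ran from base -903 to base -504 and shared no base with the sequence printed above. The GATA-type match in that sequence, TGATAA read on the opposite strand, lay at -80 to -75 and so outside the peak. Of all protein-coding genes, 11% had a peak nearer to the gene body. The next peak lay 65.9 kb downstream of the gene, inside Prdx2, which encodes an abundant red cell peroxidase, and fell outside the window.

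The Klf1 neighbourhood is crowded, and 6 other protein-coding genes lay at least partly within 50 kb of it. The windows of all 6, Farsa, Syce2, Gcdh, Dnase2a, Mast1 and Rtbdn, held the Klf1 peak, which was nearest to Klf1 among protein-coding genes. Dnase2a encodes the nuclease that macrophages use to digest expelled red cell nuclei. In the 250 kb on either side of Klf1 there were 6 peaks and 32 protein-coding genes, and 3 of those genes held a peak, a share near the 9.34% of all protein-coding genes. The other upstream peaks sat in Lyl1, a blood transcription factor gene related to Tal1, and in Nfix, a nuclear factor I gene that has been tied to fetal globin silencing in human cells. Relative to the Klf1 start, the Lyl1 peaks lay at -200 and -198 kb and the Nfix peaks at -171 and -101 kb. No peak was called in the genes between Nfix and Klf1, among them Calr, Farsa and Gcdh.

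**Figure D2:**
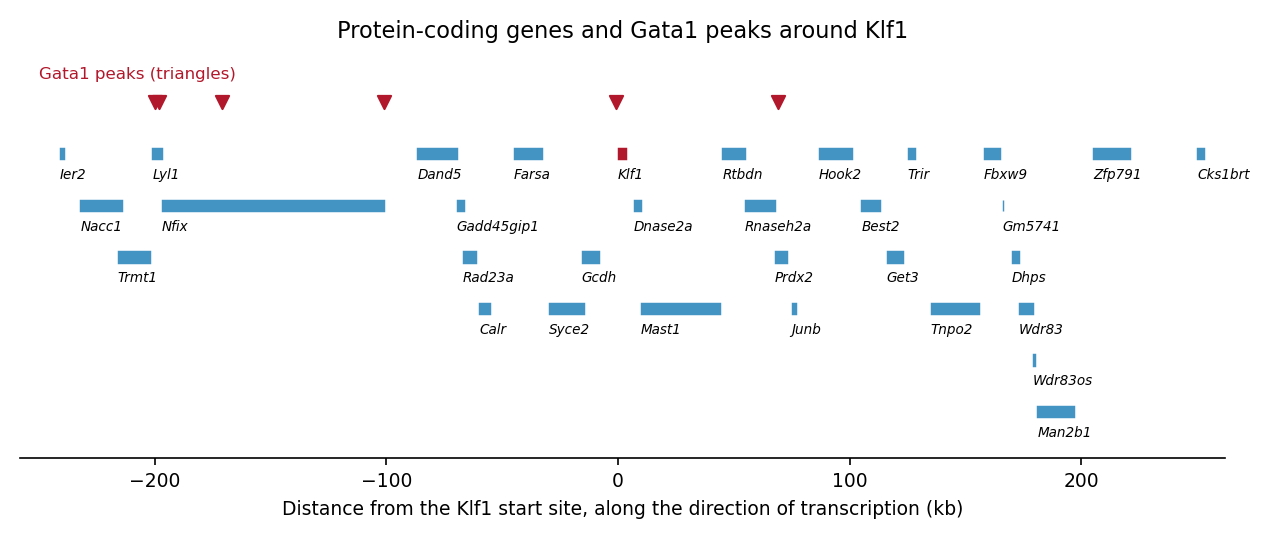
Protein-coding genes (bars) and the 6 Gata1 peaks (triangles) in the 250 kb on either side of Klf1 (dark red bar), in kb from the Klf1 start site. The Klf1 peak stands alone between the Nfix peak at -101 kb and the Prdx2 peak at 69.2 kb.

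Klf2, known for its part in vessel walls and in primitive red cells, had its only assigned peak far from the gene. This peak, at 72368803 to 72369202 on chromosome 8, lay 47.3 kb downstream, inside Eps15l1, an endocytosis gene. The midpoint was 28 kb from the nearest gene end. On the other side, a peak 50.6 kb upstream fell just outside the rule, nearest to Ap1m1. These 2 peaks are the ones just inside and just outside the 50 kb limit. Another peak lay 79.4 kb upstream, 0.367 kb from Ap1m1, which encodes a clathrin adaptor subunit.

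Klf6 had 1 peak, at 5845051 to 5845450 on chromosome 13, and it was the only one of the 9 that lay outside every gene and over 1 kb from every gene end. It was 16.2 kb upstream of Klf6, the protein-coding gene nearest to it. Its own nearest neighbour among peaks was 607 kb away, and downstream of Klf6 the next peak was 581 kb away. The lncRNA gene 1700016G22Rik starts 12.8 kb from the peak, between it and Klf6.

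Klf13 held 1 peak in its body, at 63896826 to 63897225 on chromosome 7. The gene, 52.6 kb on the minus strand at 63886351 to 63938915, was crossed by the peak 41.9 kb from its start and 10.7 kb before its end. The lncRNA gene Gm27252, on the opposite strand, also held the peak, and its start was 0.641 kb from the midpoint. The gene table used here gives no exons, so whether a peak within a gene was exonic or intronic was not determined. A further peak lay 58 kb upstream of Klf13.

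Klf3, whose transcription Klf1 is known to activate, had no peak in its window. Klf3 lies at 64803521 to 64832901 on chromosome 5, and the coding gene Gm38457 overlaps it on the other strand. The nearest peak was 88.6 kb upstream, at 64714717 to 64715116, inside the lncRNA gene LOC105244755 and 0.264 kb from one of its listed start sites. Downstream the nearest was 503 kb away. Among all protein-coding genes 41.8% had a nearer peak.

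Zbtb7a had the most peaks of the 8 genes within 50 kb. The first of its peaks, at 81136160 to 81136559 on chromosome 10, had its midpoint 88 bases past the RefSeq start site and ran from base -111 to base 288. It shared 111 bases with the 250 printed above. The AGATAA on the gene's strand, at -39 to -34, lay inside the peak, and the AGATAA on the opposite strand, at -116 to -111, ended on its first base. The second peak, at 81152316 to 81152715, lay 0.293 kb beyond the end of the gene. The third, at 81106445 to 81106844, lay 28.6 kb upstream, inside Map2k2, which encodes the kinase MEK2, and 0.729 kb from the Map2k2 start, so it was nearer to that gene than to Zbtb7a. Of all protein-coding genes, 3.35% had 3 or more peaks within 50 kb.

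Each Zbtb7a peak also lay in the windows of 5 other protein-coding genes, with Map2k2 and Pias4 among them for all 3. The peak at the start and the one beyond the end were also in the window of Eef2, encoding translation elongation factor 2. Zbtb7a had 6 coding neighbours at least partly within 50 kb, against a median of 3 for all protein-coding genes. A peak midpoint within 1 kb of a RefSeq start site was found for 2 of the 8 genes, Klf1 and Zbtb7a. The share was 4.26% of the 17492 protein-coding genes that have a start site in the promoter table.

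Sox6, encoding a repressor of the SoxD group, held 2 peaks in a body of 570 kb, at 115470872 to 116040776 on the minus strand of chromosome 7. They lay at 115941712 to 115942111 and at 115550462 to 115550861, which is 17.3% and 86% of the way along the gene from its 5′ end. The promoter table lists 6 entries for Sox6. The nearest start site was 53.2 kb from the first peak and 251 kb from the second, so neither was at a listed promoter. The peaks were 391 kb apart. Of the 227 protein-coding genes of 500 kb or more, 29.1% had a peak in the gene or within 50 kb and 25.1% had one in the body. In the Sox6 window the density was 0.299 peaks per 100 kb, against 0.225 over the windows of all protein-coding genes together.

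Bcl11a, encoding the main known silencer of fetal globin in human red cells, was the member farthest from any peak. The gene lies at 24076564 to 24173558 on chromosome 11, and the nearest peak was 907 kb upstream. Downstream the nearest was 5374 kb away. The peak-free stretch that holds Bcl11a spanned 6.38 Mb and was the longest of the 341 between neighbouring peaks on that chromosome. Over all chromosomes it ranked 42 of 4112 such stretches, whose median was 171 kb. It contained 20 protein-coding genes. Among protein-coding genes, 85.6% had a peak nearer than Bcl11a. Read mapping in the stretch was not examined.

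**Figure D3:**
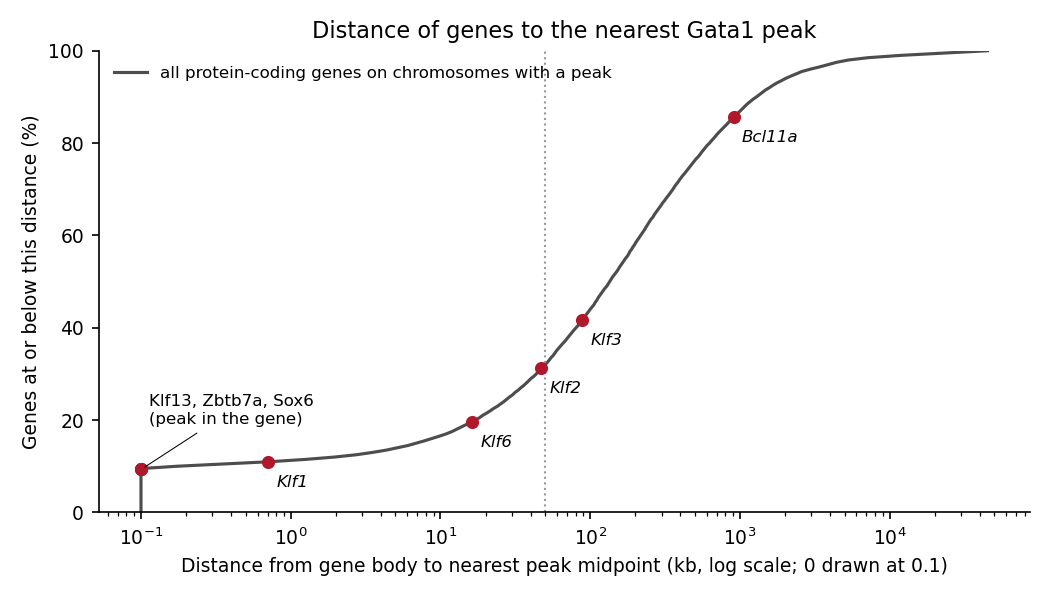
Distance in kb from the gene body to the nearest Gata1 peak midpoint (log scale, 0 drawn at 0.1) for all protein-coding genes (line, cumulative percent) and the 8 genes (dots); the dotted line marks 50 kb. Klf13, Zbtb7a and Sox6 hold a peak, Klf1 lies at 0.704 kb, and Klf3 at 88.6 kb and Bcl11a at 907 kb lie beyond the limit.

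As a group the 8 windows covered 1581 kb and held 0.569 peaks per 100 kb, against 0.225 in the windows of all protein-coding genes. Without Sox6, which makes up much of that length, the density was 0.769. The nearest peak was a median of 8.47 kb away for the 8 genes and 135 kb for all protein-coding genes. Of the 9 peaks, 4 lay in the body of one of the 8 genes, 3 upstream and 2 downstream. By position relative to any annotated gene, 4 of 9 were within 1 kb of a gene end, 4 deeper inside a gene and 1 outside genes. The peak over the Zbtb7a start was among those counted as deeper inside, because the annotated gene span begins 1.13 kb before its midpoint. Over all 4133 nuclear peaks the shares were 26%, 50.8% and 23.2%. For 7 of the 9, one of the 8 genes was the nearest protein-coding gene, and the exceptions were the peaks inside Eps15l1 and Map2k2.

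Klf1 and Klf2 are both under 5 kb, a class of 4990 genes in which 21.4% had a peak within 50 kb. Klf6 and Zbtb7a fall between 5 and 20 kb (35.4%), Klf3 between 20 and 50 kb (33.9%), and Klf13 and Bcl11a between 50 and 100 kb (35.7%). Sox6 belongs to the longest class described above.

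**Figure D4:**
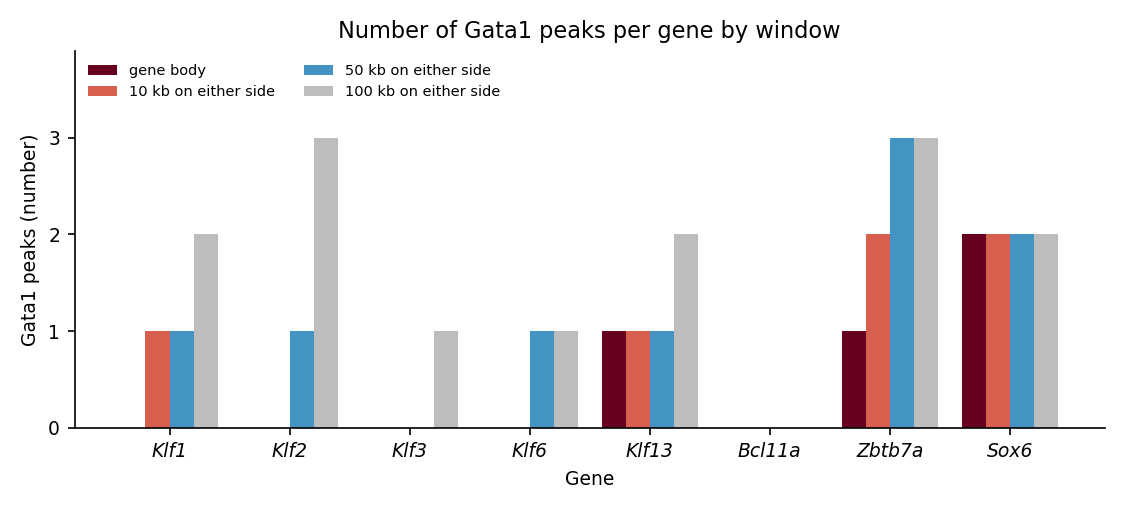
Number of Gata1 peaks assigned to each of the 8 genes in the gene body and with 10, 50 and 100 kb on either side. Sox6 has 2 peaks at every window, Klf2 has 1 at 50 kb and 3 at 100 kb, and Bcl11a has none at any.

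Over the whole promoter entry, which adds 50 bases after the start, a GATA-type match was found for Klf1, Klf2, Zbtb7a and Sox6, against 29.8% of all entries. The Klf2 match, AGATAG on the opposite strand at 32 to 37, lay after the start, and Klf2 had no peak within 10 kb. The matches at Sox6 were in 2 of its 6 entries, while each of the other 7 genes has 1 entry. CCNCNCCC was found for 7 of the 8 genes, all but Klf1, against 49.5% of all entries. At Sox6 it was likewise in 2 of the 6 entries. A gene was counted if any of its entries had a match, so these gene counts and the shares of entries are unlike measures. A match says only that these letters are present, and the lack of CCNCNCCC at Klf1 does not mean a lack of CACCC.

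The wider family and pathway were counted in the same 50 kb windows. Of 21 other Klf and Sp genes, which encode factors with related zinc fingers, 7 had a peak (33.3%, Wilson interval 17.2 to 54.6%), near the 32.0% of all protein-coding genes. The counts were highest at Sp2 and Sp1 with 4 each, Sp7, a bone factor gene, with 3 and Sp6 with 2. These genes lie in neighbouring pairs whose windows overlap, and Sp1 and Sp7 shared 3 peaks while Sp2 and Sp6 shared 2. Sp2 had a peak 0.375 kb from its start site, whereas the nearest to Sp1 was 11 kb away. Klf10, Klf11 and Klf12 had none, at nearest distances of 241, 1810 and 12725 kb.

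Of 34 other regulators of globin switching, 24 had a peak (70.6%, 53.8 to 83.2%), against 32.0% of all protein-coding genes, a difference that was not tested. Apart from Zfpm1 and Tal1, the count was highest at Nfix with 4, of which 2 lay in Nfix and 2 in the adjacent gene Lyl1. Pogz, a chromatin factor gene, Nr2c2, a nuclear receptor gene, and Rcor1, the CoREST gene, had 3 each. Hdac2, Igf2bp3 and Kdm1a, which encode a histone deacetylase, an RNA-binding protein of fetal cells and the demethylase LSD1, had none, at 279, 129 and 240 kb. With 10 kb, 15 of the 34 had a peak (44.1%), against 16.6%.

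Genes that Klf1 is known to activate had a peak in 22 of 25 cases (88%, 70 to 95.8%), against 32.0%. This difference from all protein-coding genes was not tested. The list holds Hbb-bs and Hbb-bt, which are also counted among the globin genes below. Fech, for the last step of haem synthesis, Slc4a1 (band 3), Sptb (beta-spectrin) and the adult globin gene Hbb-bs had 4 each. Within 10 kb there were 4 at Sptb, 3 at Fech, 1 at Slc4a1 and 0 at Hbb-bs, whose nearest peak was 17.4 kb away. The water channel gene Aqp1, the cell cycle inhibitor gene Cdkn2c and the iron importer gene Slc25a37 had none, at 261, 138 and 213 kb. With 10 kb the count was 18 of 25, against 16.6% of all protein-coding genes. All 10 globin genes had a peak within 50 kb, from 2 at Hbb-bt to 5 at Hba-x, Hba-a1 and Hbq1b. None held one in its body, against 9.34% of all protein-coding genes and 1.7% of those under 5 kb. Within 10 kb, 4 of 10 had one, against 16.6%. They form 2 clusters whose windows overlap, so the same peaks were counted for several genes.

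**Figure D5:**
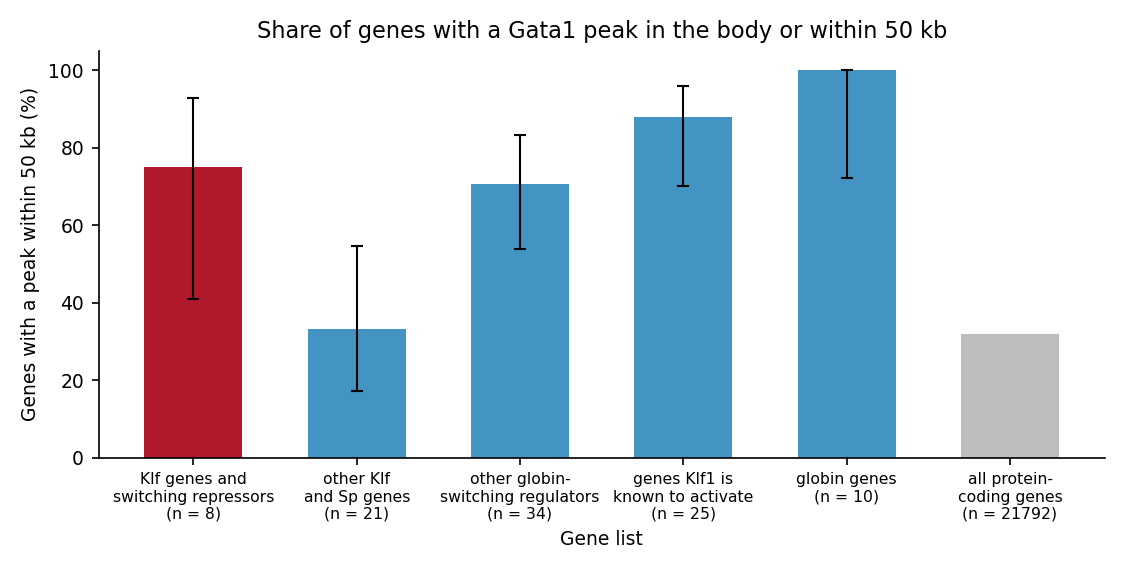
Percent of genes with a Gata1 peak midpoint in the gene body or within 50 kb for the 8 genes, 4 lists and all protein-coding genes; bars are shares, whiskers 95% Wilson intervals (counting error over genes only). The 8 genes stand at 75%, other Klf and Sp genes at 33.3%, beside 32.0% of all protein-coding genes. The globin genes share peaks within clusters, so their whisker counts genes that are not independent.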

How the data were processed

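The authors deposited 1 list of peak positions (chromosome, start, end), with no header and no score, height, p-value or summit. Every interval in it was 400 bp wide. Bowtie2 2.0.6, MACS2 2.0.10 and build mm10 are named in the submitters' processing notes. No source used here gives their settings, the threshold, filters or use of the control. Per the labels' protocols, cells were fixed with 1% formaldehyde, 7 µg of antibody was used, and fragments of 150 to 400 bp were selected.

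Peak midpoints were set against gene spans of a RefSeq table (GRCm38.p6), from which 340 entries below 3 Mb on autosomes or the X and 17 unplaced ones were left out, giving 49640 genes. Strands and start sites came from the RefSeq promoter table. Positions are printed 1-based. Python 3.11.15, numpy 2.4.6, pandas 2.3.3, scipy 1.17.1 and matplotlib 3.10.9 were used, and the counting was tested on simulated data. The 8 genes and the 4 lists were chosen with earlier results of these data known. Genes named from the lists were the 4 with the most peaks, with ties settled by the shorter distance to a peak and then by symbol, and the first 3 by alphabet without one. Genes in or nearest to a peak of the 8 genes were also named. Further genes, among them Nr2c2 and Rcor1, were chosen after their values were seen. No test was run.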

Additional observations from a re-analysis of the deposited data

How the results depend on the processing

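The number of the 8 genes with a peak was 6 by the rule used, and 6 with any overlap of the interval and with peaks within 1 kb counted once. It was 5 by nearest protein-coding gene only, 5 with 50 kb around RefSeq start sites (an alternative chosen after seeing the data), 4 with 10 kb and 7 with 100 kb. With the gene body only it was 3, and the number of peaks was 4 in place of 9. With 100 kb the number of peaks was 14. These follow from narrower or wider windows. At a limit of 0.5 kb, 1 peak was at a gene end and 2 were outside genes. With 10 kb, 15 other globin-switching regulators and 4 globin genes had a peak. Of 33 alternative values of the summary counts, 26 stayed within 1.5 times, and 12 of 56 for single genes moved further, among them the 2 Sox6 peaks, of which 0 lay within 50 kb of a listed start. No paired analysis was possible because the series holds 1 ChIP library. No stricter threshold could be applied without a score, and depth is unknown.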

Other observations

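Among the 14 peaks within 100 kb of the 8 genes, 3 lay inside lncRNA genes, and these were chosen for mention after their positions were seen. Of all 4133 nuclear peaks, 505 (12.2%) lay inside an lncRNA gene, and the difference was not tested. The peak nearest to Klf3 lay in LOC105244755, 0.264 kb from a listed start of that gene. The Klf13 peak lay in Gm27252, 0.641 kb from its start. The more distant Klf13 peak lay in Gm32633, 5.03 kb from a listed start.

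Junb, an AP-1 factor gene known in blood cell growth control, lay 5.69 kb from the peak inside Prdx2, downstream of Klf1. Rnaseh2a, for a subunit of the nuclease that removes RNA from DNA, was 1.62 kb from the same peak. Among the other globin-switching regulators, peaks were also called within 1 kb of the start of Ldb1 (0.271 kb), which encodes a bridging protein of the Gata1 and Tal1 complex, and in the body of Lin28b, 3.31 kb from its start. Lin28b encodes an RNA-binding protein of fetal blood cells. Nfia, of the same family as Nfix, held 1 peak in a body of 541 kb, 517 kb from its nearest listed start.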
